A study of Mus musculus with 4 samples.

Results

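The genes described here encode ligands, receptors and Smad proteins of transforming growth factor beta (TGF-beta), Nodal, activin and bone morphogenetic protein (BMP) signalling. They were measured in 4 subsets of dendritic cells (DCs) of the mouse spleen. The 10 genes, given by name, are the ligand genes Lefty1, Tgfb1 and Inhba, the type I receptor genes Tgfbr1, Acvrl1 and Bmpr1a, the type II receptor genes Tgfbr2 and Bmpr2, and the Smad genes Smad3 and Smad7. The platform annotation assigns 27 probe sets to them, and they are 10 of 18193 genes that the array names. A probe set is a group of short oligonucleotides for 1 transcript, and its value is a MAS5 signal on a linear scale.

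These subsets were CD8+CX3CR1+, CD8+CX3CR1-, CD4+ and DN DCs, the last (in the field's usage, double negative) lacking both CD4 and CD8. Each was measured on 1 array, so values have no standard deviation, differences have no p-value, and what is said of a subset is said of its 1 array. The precision is limited by this number. All cells came from spleens of Cx3cr1gfp/+ C57BL/6 mice, in which a green fluorescent protein gene stands in place of 1 copy of the chemokine receptor gene Cx3cr1, were sorted for high CD11c, and were labelled as not treated with BMP4. The sources used here do not give the age or number of the mice or say whether they were pooled.

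In this pathway a dimeric ligand brings together type II and type I receptors, and the type I receptor phosphorylates receptor Smads, which enter the nucleus with Smad4. TGF-beta, Nodal and activin mostly use Smad2 and Smad3, while BMPs use Smad1, Smad5 and Smad9. In the immune system TGF-beta is best known for restraining T cells and for the development of Langerhans cells, the dendritic cells of the epidermis.

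A floor of 55.4 was set for signal that cannot be told from background, at the 90th percentile of 129 probe sets of olfactory, vomeronasal and taste receptors and of hair keratin-associated proteins. Taken per array that percentile was 45.9 for CD8+CX3CR1+, 62.4 for CD8+CX3CR1-, 58.7 for CD4+ and 52.7 for DN DCs. Any gene over the floor on 1 array or more is called detected, which held for 12653 named genes. For 2 arrays, titled CD8+CX3CR1- and DN, the cell type field contradicts the title, and groups follow the titles. The transcripts of the sort markers Cd8a, Cx3cr1 and Cd4 go with the titles. Cd8a had signals of 2530 in CD8+CX3CR1+ DCs and 4742 in CD8+CX3CR1- DCs, against 18.7 in CD4+ DCs and 129.5 in DN DCs. Cx3cr1 was highest in CD8+CX3CR1+ DCs (894) and lowest in CD8+CX3CR1- DCs (97.3), and Cd4 was highest in CD4+ DCs (564). All 6 general DC markers searched, Itgax and Cd74 among them, lay above the floor on the 4 arrays. The ratio of 3' to 5' signal of the Gapdh control probe sets, which rises as RNA integrity falls, was 8.98, 8.33, 11.8 and 7.56 on the CD8+CX3CR1+, CD8+CX3CR1-, CD4+ and DN arrays.

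Of the 10 genes, 7 lay above the floor on all 4 arrays, through the probe set that stands for each gene, the one with the highest mean log2 signal. So did 7771 of the 18193 named genes. Lefty1 lay above it on 2 arrays, and Bmpr1a and Inhba on 1 array each. Of the 27 probe sets, 8 were above the floor on every array and 11 on none. Over the 4 arrays, 2 of the 10 genes, Lefty1 and Acvrl1, had a range of at least 4-fold, and 4.66% of detected genes had such a range. The median log2 range of the 10 genes was 0.76, and that of detected genes 0.69.

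**Figure D1:**
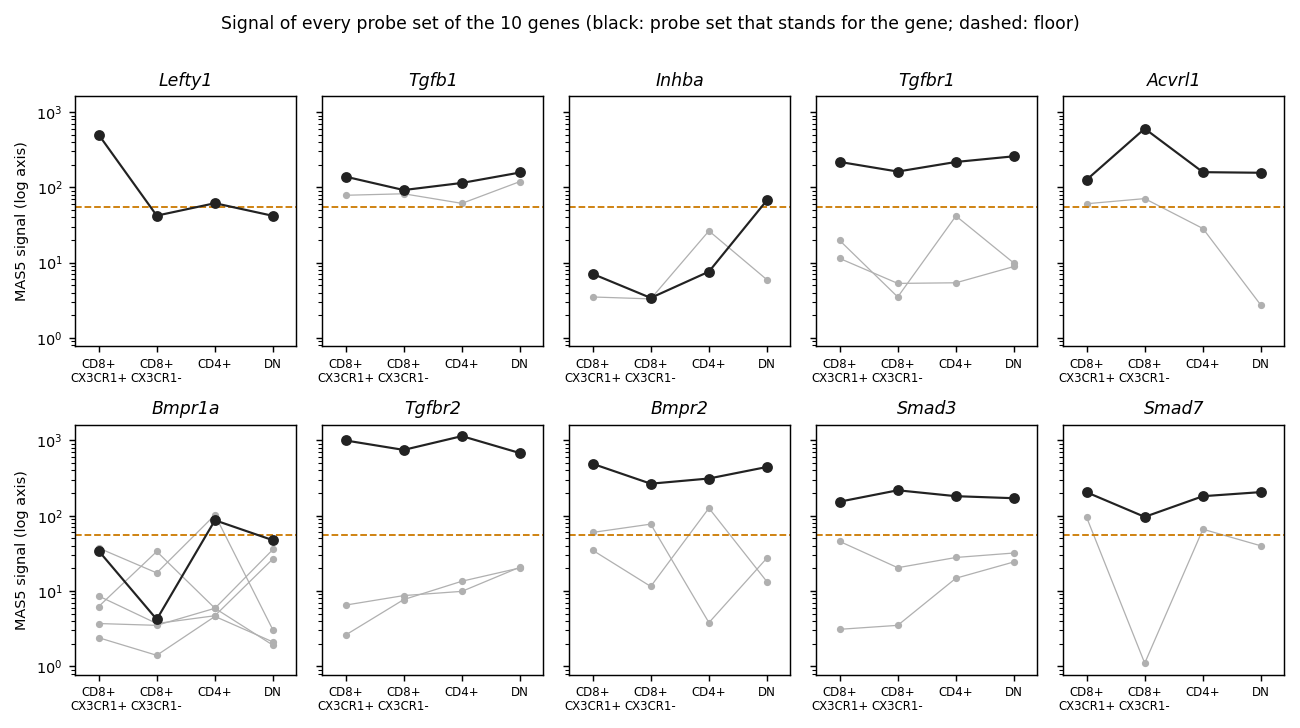
MAS5 signal on a log axis of every probe set of the 10 genes on the 4 arrays, with the probe set that stands for the gene in black, other probe sets in grey and the floor of 55.4 dashed. Lefty1 stands out in CD8+CX3CR1+ DCs (503) and Acvrl1 in CD8+CX3CR1- DCs (603), while the black probe sets of Tgfb1, Tgfbr1, Tgfbr2, Bmpr2, Smad3 and Smad7 lie above the floor on every array.

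Among the ligands, Lefty1 (probe set 1417638_at) had a signal of 503 in CD8+CX3CR1+ DCs, 42.1 in CD8+CX3CR1- DCs, 61.6 in CD4+ DCs and 41.8 in DN DCs. Lefty proteins are divergent TGF-beta family members that block Nodal signalling, best known from the left-right axis of the embryo. Lefty1 was thus at least 9.09-fold higher in CD8+CX3CR1+ DCs than in CD8+CX3CR1- and DN DCs, where it lay under the floor, and 8.17-fold higher than in CD4+ DCs. The CD4+ value lay just above the floor and near the 58.7 of that array's own background, so the other 3 subsets have no order that the data can show. Of detected genes, 0.822% were at least as far apart between the CD8+CX3CR1+ and CD8+CX3CR1- arrays, 0.142% between the CD8+CX3CR1+ and CD4+ arrays, and 0.0553% between the CD8+CX3CR1+ and DN arrays. Lefty1 has a single probe set on the array, so no other probe set bears on this difference.

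Several lists of markers of other cells were high in CD8+CX3CR1+ DCs too. The 6 plasmacytoid DC markers on the array summed to a signal of 6219 in CD8+CX3CR1+ DCs, 823 in CD8+CX3CR1- DCs, 895 in CD4+ DCs and 1923 in DN DCs, with 5, 4, 5 and 4 of them above the floor. Their brightest gene, Tcf4, which encodes the transcription factor E2-2, was 3489, 269.5, 470.0 and 1135. Siglech, a defining receptor of plasmacytoid DCs, was 205.6, 63.6, 5.8 and 12.9 in the same order, and Pacsin1 lay under the floor on all but the CD4+ array. The 5 NK cell markers summed to 3980, 306, 2053 and 2888, mostly through Klrd1, with 4, 1, 2 and 3 of them above the floor. Gzma was 114.8, 55.4, 35.0 and 87.7, and Eomes was 76.7, 22.9, 91.4 and 108.2. Prf1 was 58.2, 55.3, 4.0 and 46.5, while Ncr1 lay under the floor on all 4 arrays. The 8 endothelial and stromal markers summed to 959, 202, 397 and 364, with 2, 1, 3 and 4 above the floor. Of these, Kdr, the receptor of vascular endothelial growth factor, made up 717 of the sum in CD8+CX3CR1+ DCs, where Cdh5, Tek and Lyve1 lay under the floor. Stab2, a scavenger receptor gene of sinusoidal endothelium, was 95.6, 41.1, 80.2 and 94.7. The 7 CD4 and CD11b DC markers summed to 3654, 278, 6014 and 5596, with 6, 2, 6 and 7 above the floor. Against the CD8+CX3CR1- array 4 of the 7 were at least 4-fold higher in CD8+CX3CR1+ DCs and 0 lower, beside 2.82% of detected genes either way. Against the CD4+ and DN arrays 0 were that much higher and 1 each was lower, beside 0.775% and 0.411%.

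The 8 red pulp macrophage markers summed to 2263 in CD8+CX3CR1+ DCs, 930.3 in CD8+CX3CR1- DCs, 4102 in CD4+ DCs and 2047 in DN DCs, with 7, 5, 6 and 4 above the floor. Against the CD8+CX3CR1- array 5 of the 8 were at least 2-fold higher in CD8+CX3CR1+ DCs and 0 lower, beside 975 and 736 of 12653 detected genes. Against the DN array 5 were higher and 1 lower, beside 377 and 371 genes. Against the CD4+ array 3 were higher and 1 lower, beside 567 and 622 genes. C1qb, a complement chain gene, was 742 in CD8+CX3CR1+ DCs, against 60.0, 358 and 70.2 on the CD8+CX3CR1-, CD4+ and DN arrays, and Mertk, a receptor for dying cells, was 164.6 there and under the floor on the others. Adgre1, which encodes F4/80 and is the brightest of the list, was 578.5 against 143.1, 3068 and 1692. Vcam1 was 291.1 against 513.3, 142.1 and 109.3, and Spic was lowest in CD8+CX3CR1+ DCs (56.9 against 74.1, 70.5 and 79.6). Hmox1 lay above the floor in CD8+CX3CR1- DCs alone (71.6).

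The 6 monocyte markers summed to 13014 in CD8+CX3CR1+ DCs, 3569 in CD8+CX3CR1- DCs, 15470.1 in CD4+ DCs and 11656 in DN DCs, with 5, 4, 5 and 5 above the floor. Csf1r, their brightest gene, was 11291, 498, 13894 and 9142. The chemokine receptor gene Ccr2 was highest in CD8+CX3CR1+ DCs (705, against 225.0, 142.8 and 539.6), while Treml4 and Nr4a1 were lowest there. Treml4 was 196.1, 2123.9, 398.9 and 456.2, Nr4a1 was 624.5, 676.6, 753.6 and 1401.5, and Ace was 149.7, 22.9, 226.4 and 112.9. The 6 B cell markers summed to 1408, 766.5, 3384 and 3218, with 3, 2, 5 and 4 above the floor. Cd22, their brightest gene, was 396, 269, 2513 and 2713, while Ms4a1 was 360.8, 445.8, 202.0 and 162.5, highest in CD8+CX3CR1- DCs. Cd79b was highest in CD8+CX3CR1+ DCs (593), and Cd79a lay under the floor on every array. Of T cell, neutrophil, and platelet and erythroid markers no more than 2 a list were above the floor on any array, and their brightest genes Themis, Ltf and Itga2b reached at most 103.8, 93.7 and 128.2. The part of all such cells in the Lefty1 signal was not tested. In sorted bulk RNA, fewer cells that express a gene and less RNA per cell cannot be told apart.

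The gene for TGF-beta 1 itself, Tgfb1 (probe sets 1445360_at and 1420653_at), had a range of 1.71-fold. Its signal was 138.8 in CD8+CX3CR1+ DCs, 92.1 in CD8+CX3CR1- DCs, 114.5 in CD4+ DCs and 157.6 in DN DCs. Its second probe set gave 78.5, 82.2, 61.3 and 119.6. Both were highest in DN DCs, and they disagree on which array is lowest. Probe error was gauged by how far the log2 differences of 1 gene's probe sets scatter, with a root mean square SD of 0.42 to 0.55 in the 6 pairs of arrays. It leaves out the spread between mice and sorts. No 2 neighbours in the order of the Tgfb1 signals were further apart than this, but CD8+CX3CR1- and DN DCs were (log2 difference -0.77, and -0.54 at the second probe set). So were CD8+CX3CR1+ and CD8+CX3CR1- DCs (0.59), where the second probe set gave -0.07.

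Inhba, which encodes the beta A subunit of activin A, lay under the floor on 3 arrays (7.1 in CD8+CX3CR1+, 3.4 in CD8+CX3CR1- and 7.6 in CD4+ DCs). On the DN array it was 67.9, at least 1.23-fold higher than on the others, and its second probe set (5.9) lay under the floor there. Of 27 ligand genes of the family on the array, 13 were detected and 14 lay under the floor on all arrays, while 69.5% of all named genes were detected. Nodal, the ligand that Lefty proteins block, was 48.3 in CD8+CX3CR1+ DCs, where it lay under the floor, against 121.7, 163.9 and 71.3 on the CD8+CX3CR1-, CD4+ and DN arrays. Its second probe set lay under the floor on every array. Bmp8a and Gdf2, both BMP family ligands, ranged from 62.9 to 129.8 and from 51.3 to 157.

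Among the type I receptors, Acvrl1 (probe set 1451604_a_at) was 125.8 in CD8+CX3CR1+ DCs, 603 in CD8+CX3CR1- DCs, 159 in CD4+ DCs and 156 in DN DCs. It encodes ALK1, a receptor for BMP9 and BMP10 best known from endothelial cells. The CD8+CX3CR1- array stood alone above 3 arrays whose neighbours differed by no more than 0.31 (log2), within the probe error. Acvrl1 was 4.79-fold lower in CD8+CX3CR1+ DCs than in CD8+CX3CR1- DCs. On the CD8+CX3CR1- array it was 3.79-fold higher than in CD4+ DCs and 3.86-fold higher than in DN DCs, just under the 4-fold threshold.

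The second Acvrl1 probe set (1435825_at) did not carry this pattern. It gave 60.6 and 70.9 on the CD8+CX3CR1+ and CD8+CX3CR1- arrays, near the floor, and 28.4 and 2.7 on the CD4+ and DN arrays, below it. Between the CD8+ arrays its log2 difference was -0.23, against -2.26 for the first probe set, and with the probe sets averaged the difference was -1.24. The 8 endothelial and stromal markers had their lowest sum (202) in CD8+CX3CR1- DCs, with Cdh5, Kdr and Tek under the floor there. Cdh5, Kdr, Stab2, Lyve1 and Col1a1 were at their lowest on the CD8+CX3CR1- array, while Tek (50.6) and Col1a2 (65.0) were at their highest. Col1a2, the 1 marker above the floor there, was 44.2, 61.7 and 8.0 on the CD8+CX3CR1+, CD4+ and DN arrays. The 7 CD8 DC markers had their highest sum in CD8+CX3CR1- DCs, at 32533, against 6106 in CD8+CX3CR1+ DCs, 3803 in CD4+ DCs and 9076 in DN DCs. Of these markers, 6, 7, 5 and 6 lay above the floor on the CD8+CX3CR1+, CD8+CX3CR1-, CD4+ and DN arrays. The part of any of these cells in the Acvrl1 signal was not tested.

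Tgfbr1, also called ALK5, is the type I receptor through which TGF-beta signals. Its signal was 217.9 in CD8+CX3CR1+ DCs, 162 in CD8+CX3CR1- DCs, 217.5 in CD4+ DCs and 259 in DN DCs, with a range of 1.60-fold. Its other 2 probe sets lay under the floor on every array. Bmpr1a, the BMP receptor ALK3, was 34.3, 4.2, 87.1 and 47.2 in the same order. It thus lay above the floor in CD4+ DCs alone, as did 1 of its other 5 probe sets (102.6). The CD4+ array also had the highest Gapdh ratio (11.8) and the largest share of probe sets above the floor (47.8%, against 41.1% to 42.7% on the others), and the part of these in the Bmpr1a signal was not tested. Acvr1b, an activin and Nodal receptor, was 474 in CD8+CX3CR1+ DCs, 290.3 in CD8+CX3CR1- DCs, 367 in CD4+ DCs and 320.4 in DN DCs.

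Tgfbr2 and Bmpr2, the type II receptor genes among the 10, lay above the floor on every array. Tgfbr2, the receptor that binds TGF-beta first, had signals of 1000.4 in CD8+CX3CR1+ DCs, 749 in CD8+CX3CR1- DCs, 1143 in CD4+ DCs and 679 in DN DCs. The arrays differed by at most 1.68-fold, between the CD4+ and DN arrays, and no neighbours in the order were further apart than the probe error. Its other 2 probe sets lay between 2.6 and 20.8, under the floor on every array. Bmpr2, the type II receptor for BMPs, was 490.5, 266.5, 312 and 445 in the order CD8+CX3CR1+, CD8+CX3CR1-, CD4+ and DN. It was 1.84-fold higher in CD8+CX3CR1+ than in CD8+CX3CR1- DCs, but a second probe set gave the opposite direction near the floor (60.0 against 77.4). Acvr2a, which binds activins, was 120.6 in CD8+CX3CR1+ DCs, 49.7 in CD8+CX3CR1- DCs, 190.5 in CD4+ DCs and 106 in DN DCs, and was thus under the floor in CD8+CX3CR1- DCs alone. Acvr2b was highest there, with 90.3, 116.1, 8.0 and 54.5 in the same order, and lay under the floor in CD4+ and DN DCs.

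Smad3, a receptor Smad of TGF-beta, Nodal and activin, had 153.7 in CD8+CX3CR1+ DCs, 217.9 in CD8+CX3CR1- DCs, 182 in CD4+ DCs and 171 in DN DCs, a range of 1.42-fold. Neighbours in this order lay within the probe error, while CD8+CX3CR1+ and CD8+CX3CR1- DCs, the ends of the range, lay just past it (-0.50 against 0.47). Smad7, an inhibitory Smad that TGF-beta induces and that blocks the type I receptors, was lowest in CD8+CX3CR1- DCs. It had 205 in CD8+CX3CR1+ DCs, 96.6 in CD8+CX3CR1- DCs, 182 in CD4+ DCs and 206 in DN DCs. The CD8+CX3CR1+ array was 2.13-fold higher than the CD8+CX3CR1- array, and the CD8+CX3CR1- array was 1.88-fold lower than the CD4+ array and 2.13-fold lower than the DN array. The other 3 arrays differed from their neighbours by at most 0.18 (log2). Its second probe set was also lowest there, with 95.9, 1.1, 66.2 and 39.8, though it lay above the floor on the CD8+CX3CR1+ and CD4+ arrays only.

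The other Smads were measured too. Smad4, the partner that all receptor Smads share, was 4018 in CD8+CX3CR1+ DCs, 1909 in CD8+CX3CR1- DCs, 2460.2 in CD4+ DCs and 2778 in DN DCs. It was 2.11-fold higher in CD8+CX3CR1+ than in CD8+CX3CR1- DCs. Smad1 and Smad2, receptor Smads of the BMP and TGF-beta branches, had ranges of 0.62 and 0.43 (log2) over the arrays, against 1.07 for Smad4. Of the 8 Smad genes, 6 lay above the floor on all arrays, as did 7771 of the 18193 named genes, and 1 lay above it on none.

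The arrays were compared in 6 pairs to see which of the genes set the subsets apart. Between the CD8+CX3CR1+ and CD8+CX3CR1- arrays 2 of 10 genes were at least 4-fold apart, Lefty1 (higher in CD8+CX3CR1+ DCs) and Acvrl1 (lower), as were 2.82% of detected genes. With Smad7, 3 were at least 2-fold apart, as were 13.5% of detected genes. The Smad7 difference (1.09, log2) was under 2-fold after quantile normalization (0.93) and with probe sets averaged (0.94). Between the CD8+CX3CR1+ and CD4+ arrays 1 of 10 was at least 4-fold apart, Lefty1, beside 0.775% of detected genes, and it was also the 1 gene at least 2-fold apart, beside 9.4%. Between the CD8+CX3CR1+ and DN arrays Lefty1 was again the 1 gene past both folds, beside 0.411% and 5.91% of detected genes. These 3 comparisons share the CD8+CX3CR1+ array.

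In the other pairs 0 of the 10 genes were at least 4-fold apart. This share was 2.98% of detected genes between the CD8+CX3CR1- and CD4+ arrays, 2.02% between the CD8+CX3CR1- and DN arrays and 0.253% between the CD4+ and DN arrays. Acvrl1 passed 2-fold between the CD8+CX3CR1- and CD4+ arrays, beside 15.9% of detected genes, and Acvrl1 and Smad7 did so between the CD8+CX3CR1- and DN arrays, beside 11.0%. In the pair of CD8+CX3CR1- and DN arrays Smad7 was under 2-fold after quantile normalization (-0.97) and with probe sets averaged (-0.55). Acvrl1 was under 2-fold in both pairs without _x, _s and _a probe sets (0.36 each). Between the CD4+ and DN arrays 0 of 10 passed 2-fold, beside 7.6%. A gene that is detected only where it is high had to differ there, and 3 of the 10 genes, Lefty1, Bmpr1a and Inhba, lay under the floor on 2 or 3 arrays, so that their differences are bounds in part.

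The median log2 difference of the 10 genes was 0.42 between the CD8+CX3CR1+ and CD8+CX3CR1- arrays, against 0 for detected genes. It was 0.00 against the CD4+ array and -0.08 against the DN array. Of the 7 genes above the floor on all arrays, 4 (Tgfb1, Tgfbr1, Bmpr2 and Smad7) were lowest in CD8+CX3CR1- DCs, where 2 others (Acvrl1 and Smad3) were highest. Of the 7771 genes above the floor on all arrays, 29.9% were lowest there. For Tgfb1, Tgfbr1, Bmpr2 and Smad3 the step between that array and its neighbour (0.31, 0.42, 0.23 and 0.26, log2) lay within the probe error. The steps of Smad7 (0.91) and Acvrl1 (1.92) lay past it.

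**Figure D2:**
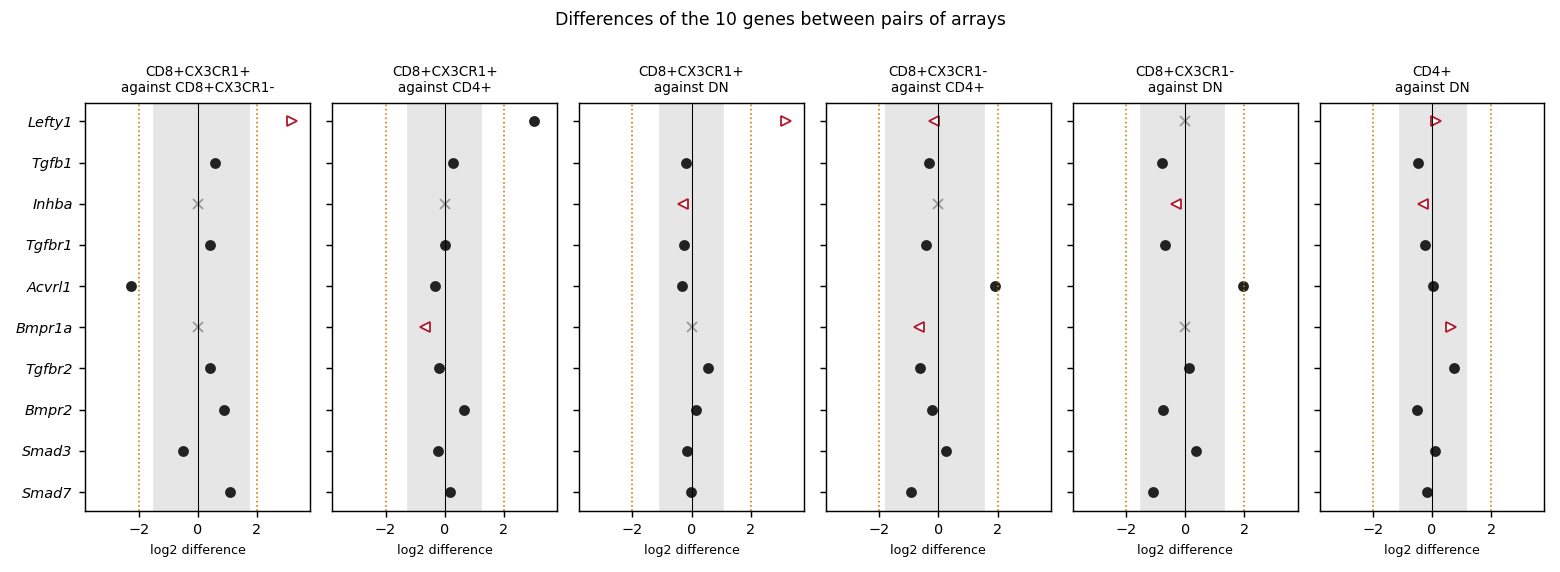
Log2 differences of the 10 genes in the 6 pairs of arrays, first-named array minus second, with the central 95% of detected genes shaded grey and 4-fold dotted. Filled circles are genes above the floor on both arrays, open triangles are bounds that point away from the array under the floor, and crosses are genes under the floor on both. Lefty1 lies past 4-fold in the 3 pairs that hold the CD8+CX3CR1+ array, and Acvrl1 past it (-2.26) or next to it (1.92 and 1.95) in the 3 pairs that hold the CD8+CX3CR1- array.

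To set these genes beside the rest of the pathway, 9 lists of ligands, receptors, co-receptors, Smads, antagonists, activators, regulators and target genes were searched. Of 101 further genes on the array, 68 were detected, 37 lay above the floor on every array and 3 had a range of at least 4-fold, a share near the 4.66% of all detected genes. These 3 were Ltbp2, Itgae and Id2, and each was highest in CD8+CX3CR1- DCs. Counting the 10 genes too, 7 of 7 type I receptors, 4 of 5 type II receptors, 5 of 8 co-receptors, 7 of 8 Smads and 8 of 13 antagonists were detected. A range of at least 2-fold was found for 26 of the 68 (38.2%), against 28.4% of all detected genes.

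Ltbp2 belongs to the family of latent TGF-beta binding proteins, matrix proteins of which some tether inactive TGF-beta. It was 24.4 in CD8+CX3CR1+ DCs, 252.7 in CD8+CX3CR1- DCs, 14.8 in CD4+ DCs and 26.8 in DN DCs. The CD8+CX3CR1- array was thus the 1 array above the floor, at least 4.56-fold apart from each of the others. Itgae, which encodes the CD103 chain that TGF-beta induces on T cells and that marks CD8 DCs, was 105 in CD8+CX3CR1+ DCs, 1130.1 in CD8+CX3CR1- DCs, 97.2 in CD4+ DCs and 33.0 in DN DCs. Its second probe set was also highest in CD8+CX3CR1- DCs but ordered the others differently, with 11.9, 615, 8.9 and 144.2. Id2, a BMP target that encodes an inhibitor of basic helix-loop-helix factors and is needed for CD8 DCs, was 236, 1389, 425 and 565.5 in the same order of subsets. It was 5.88-fold lower in CD8+CX3CR1+ than in CD8+CX3CR1- DCs. Its other 2 probe sets gave log2 differences of -4.38 and -3.23, against -2.55 for the first. These genes were highest where the CD8 DC markers were, and the part of those cells in their signal was not tested.

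Of 10 detected target genes, the pair Itgae and Id2 was at least 4-fold lower in CD8+CX3CR1+ than in CD8+CX3CR1- DCs, and 0 were that much higher, where 2.82% of detected genes were 4-fold apart. The list's median log2 difference was -0.76, against 0 for detected genes. The median was -0.66 against the CD4+ array and -0.55 against the DN array, with 0 genes at least 4-fold apart in either (0.775% and 0.411% of detected genes). At 2-fold, 0 target genes were higher in CD8+CX3CR1+ DCs, and 4, 2 and 3 were lower than in CD8+CX3CR1-, CD4+ and DN DCs. Either way, 13.5%, 9.4% and 5.91% of detected genes were at least 2-fold apart in these pairs. Tgfbi, an extracellular matrix protein gene named for its induction by TGF-beta, was lowest in CD8+CX3CR1+ DCs, with 2276 against 5753, 7043 and 4502 on the CD8+CX3CR1-, CD4+ and DN arrays. Runx3, a transcription factor gene that acts downstream of TGF-beta, was highest there, with 944 against 585, 709 and 703.

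In the lists of latency and activation genes and of regulators, 1 and 0 genes had a range of at least 4-fold. Nrros, which holds latent TGF-beta on myeloid cells, was 3202 in CD8+CX3CR1+ DCs, 1761 in CD8+CX3CR1- DCs, 4734 in CD4+ DCs and 3877 in DN DCs. Itgav, the integrin chain that activates TGF-beta together with Itgb8, was 225.6, 365, 238 and 458, and Itgb8 lay under the floor on all 4 arrays. Skil, a Smad corepressor gene that TGF-beta induces, was 973, 1773, 1733 and 2440 in that order, lowest in CD8+CX3CR1+ DCs as Tgfbi was. The regulator gene Strap was 1550.0, 2233.6, 1501.0 and 1900.7. Trim33, another, was highest in CD8+CX3CR1+ DCs, with 1634.4 against 1431.3, 1449.7 and 1266.6 on the CD8+CX3CR1-, CD4+ and DN arrays. Among co-receptors and antagonists, Eng, a co-receptor for TGF-beta and BMP9 (62.1, 11.4, 55.6 and 31.5 in the same order), lay close to the floor or under it. Twsg1, a secreted BMP modulator, was 179.5 and 208.5 on the CD8+CX3CR1+ and CD8+CX3CR1- arrays, against 72.3 in CD4+ DCs and 112 in DN DCs.

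**Figure D3:**
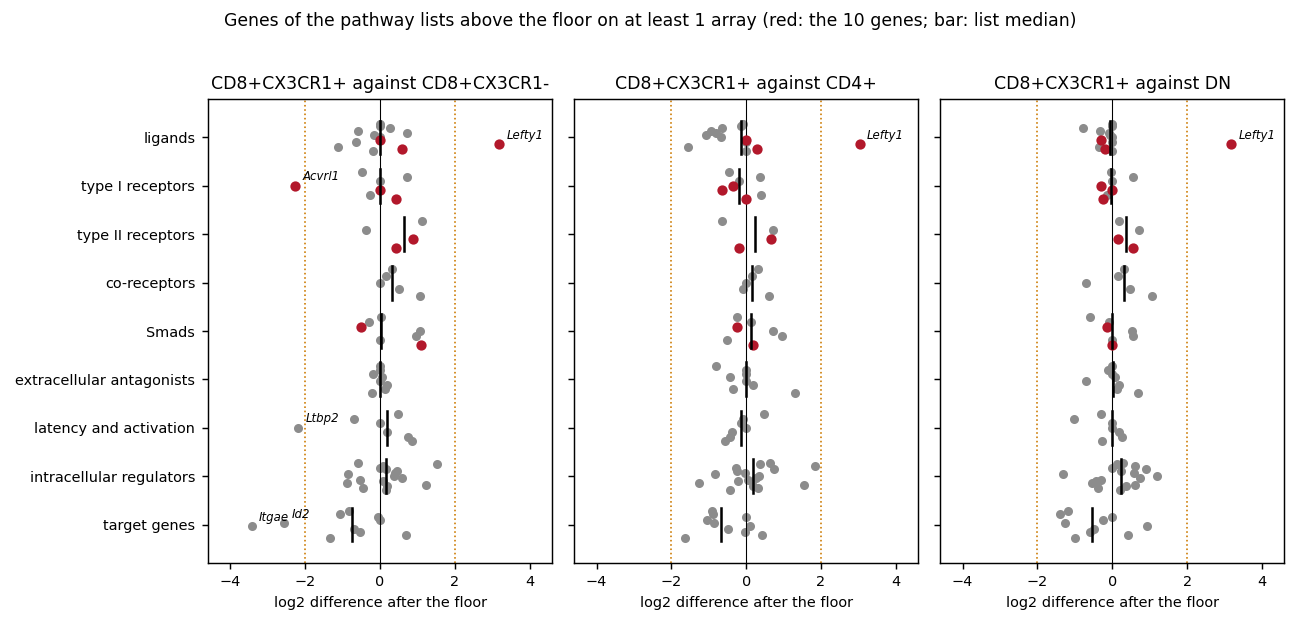
Log2 differences after the floor of the detected genes of the 9 lists, for the CD8+CX3CR1+ array against each of the other 3, with the 10 genes in red, other genes in grey, list medians as black bars and 4-fold dotted. Lefty1 is the 1 gene past 4-fold in all 3 panels, and Acvrl1, Ltbp2, Itgae and Id2 pass it in the panel against CD8+CX3CR1-.

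Promoters from RefSeq (build GRCm38.p6, 250 bases before to 50 after the annotated start) were found for 7 of the 10 genes, and Lefty1, Acvrl1 and Smad7 were not matched. They were searched on both strands for CAGAC, a Smad box, and for GGCGCC, a GC-rich element that BMP Smads bind. CAGAC stands in 49.6% and GGCGCC in 11.9% of 32851 mouse promoters of this length. The promoters of both type II receptor genes are shown because these receptors had signal on every array, and those of Id2 and Ltbp2 because these pathway genes, like Acvrl1, were highest in CD8+CX3CR1- DCs. Capitals mark CAGAC, its reverse complement GTCTG, and GGCGCC, which did not overlap. The sequences lie at chr9:116175314-116175613 (minus strand), chr1:59764029-59764328 (plus strand), chr12:25096043-25096342 (minus strand) and chr12:84876442-84876741 (minus strand), in the order given.
Tgfbr2: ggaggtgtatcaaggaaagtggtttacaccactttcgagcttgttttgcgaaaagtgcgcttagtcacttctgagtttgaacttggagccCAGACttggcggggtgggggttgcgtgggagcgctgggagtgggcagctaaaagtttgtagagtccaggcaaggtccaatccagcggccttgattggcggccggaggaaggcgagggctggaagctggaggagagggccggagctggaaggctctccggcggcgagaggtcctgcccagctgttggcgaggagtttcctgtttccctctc
Bmpr2: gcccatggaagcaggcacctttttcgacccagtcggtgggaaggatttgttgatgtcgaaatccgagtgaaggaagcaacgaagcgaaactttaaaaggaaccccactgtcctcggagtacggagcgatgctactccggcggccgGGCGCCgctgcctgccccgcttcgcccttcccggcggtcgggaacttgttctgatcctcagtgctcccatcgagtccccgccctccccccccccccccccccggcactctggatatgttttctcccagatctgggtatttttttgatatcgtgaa
Id2: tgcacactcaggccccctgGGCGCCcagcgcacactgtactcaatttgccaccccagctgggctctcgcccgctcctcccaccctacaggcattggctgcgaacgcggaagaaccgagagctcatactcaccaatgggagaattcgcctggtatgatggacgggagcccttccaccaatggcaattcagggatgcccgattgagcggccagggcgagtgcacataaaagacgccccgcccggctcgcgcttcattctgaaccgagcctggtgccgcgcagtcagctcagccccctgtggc
Ltbp2: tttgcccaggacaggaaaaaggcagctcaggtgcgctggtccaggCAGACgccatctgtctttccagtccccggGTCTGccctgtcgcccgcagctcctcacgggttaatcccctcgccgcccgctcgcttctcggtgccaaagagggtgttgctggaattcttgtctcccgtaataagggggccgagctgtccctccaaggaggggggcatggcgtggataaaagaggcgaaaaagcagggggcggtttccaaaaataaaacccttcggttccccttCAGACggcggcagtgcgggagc
CAGAC was found 1 time at Tgfbr2 and 3 times at Ltbp2, and GGCGCC 1 time each at Bmpr2 and Id2. Of the windows not shown, those of Tgfb1 and Smad3, genes with signal on every array too, and of Inhba held neither. Tgfbr1 had 1 GGCGCC in 1 window and 1 CAGAC in another, and Bmpr1a had 1 GGCGCC. These matches are a description of the letters in the windows.

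For Lefty1 and Acvrl1, the genes with a range of at least 4-fold, the nearest profiles were sought among 11904 detected genes. The measure was the root mean square difference of log2 profiles over the 4 arrays, each centred on its mean. Nearest to Lefty1 were Xkrx, a membrane protein gene (0.23), Ptprf, a receptor tyrosine phosphatase gene (0.28), and Snx18, a sorting nexin gene (0.34). Xkrx had 338 in CD8+CX3CR1+ DCs and lay under the floor on the other 3, and Snx18 had 1070.6, against 164.6, 250.6 and 189 on the CD8+CX3CR1-, CD4+ and DN arrays. Nearest to Acvrl1 were the integrin gene Itga8 (0.05), the Toll-like receptor adaptor gene Tirap (0.12) and the reductase gene Cyb5r1 (0.13). The second Tirap probe set gave a smaller log2 difference between the CD8+ arrays (-0.81 against -2.24). That of Itga8 lay above the floor in CD8+CX3CR1- DCs alone (63.2), near it. Cyb5r1 had 282 in CD8+CX3CR1+ DCs, 1720 in CD8+CX3CR1- DCs, 400.1 in CD4+ DCs and 415 in DN DCs. Values at the floor are equal by construction.

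**Figure D4:**
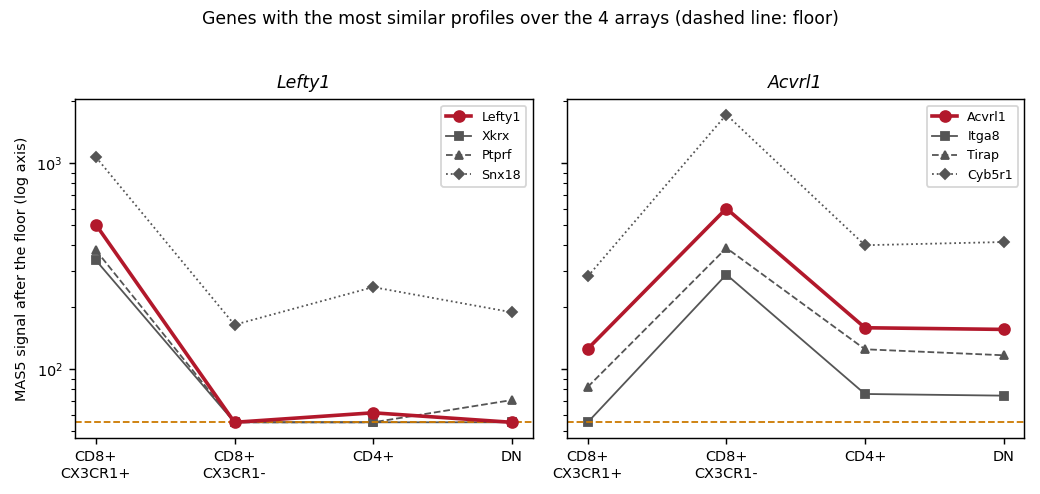
MAS5 signal after the floor, on a log axis, of Lefty1 and Acvrl1 (red) and of the 3 genes nearest to each (grey) on the 4 arrays, with the floor of 55.4 dashed. Lefty1, Xkrx, Ptprf and Snx18 are highest in CD8+CX3CR1+ DCs, and Acvrl1, Itga8, Tirap and Cyb5r1 in CD8+CX3CR1- DCs.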

How the data were processed

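Biotin-labelled total RNA of the sorted cells was measured on Affymetrix mouse expression arrays, per the labels. The authors deposited 1 intensity per probe set, which the submitters' processing notes tie to MAS5 (no version is given in the sources used here). These intensities are linear, and every array has a mean of 150.0 once the 2% highest and 2% lowest probe sets are left out. Array-wide scaling of this kind hides any difference in total RNA per cell. Nothing further was scaled.

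Of 45101 probe sets, 34945 have 1 gene symbol in the platform annotation, 932 have several and were not named, and 64 are controls. Each gene took its brightest probe set by mean log2 signal, and any signal below the floor was replaced by the floor. Where 1 of 2 arrays lay under the floor the difference is a bound, and a gene was counted at a log2 difference of at least 2 (4-fold). With 1 array per subset there is no test. Genes were named by rule: the 10 genes, up to 4 further genes of each pathway list with a range of at least 4-fold, up to 3 per list with the highest mean signal, and the 3 nearest profiles. Of these, Bmpr1b, Acvr1, Rgmb, Hjv, Dcn, Chrdl1 and Furin have no values printed. The brightest marker of each other cell type was named too, while Itgb8, Siglech, Pacsin1, Ncr1, Kdr, Cdh5, Tek, Lyve1, C1qb, Mertk, Ccr2, Cd79a and Cd79b were chosen after their values were seen. So were Treml4, Nr4a1, Ace, Vcam1, Spic, Hmox1, Gzma, Eomes, Prf1, Ms4a1, Col1a1 and Col1a2. The genes and lists were chosen with earlier results of these data known. The steps, run with Python 3.11.15, numpy 2.4.6 and pandas 2.3.3, were tested on simulated data. That simulation changed only genes well above the floor and changed all probe sets of a gene alike. It thus does not speak to genes near the floor, such as Lefty1, or with probe sets that disagree, such as Acvrl1. The alternatives were 2 other scalings, 4 other floors and 2 other ways to join probe sets.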

Additional observations from a re-analysis of the deposited data

How the results depend on the processing

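The results were recomputed under 8 alternatives: quantile normalization, equal medians, a floor at the 75th or 95th percentile, no floor, each array's own floor, probe sets averaged, and only probe sets without _x, _s or _a in their names. Lefty1 stayed at least 4-fold higher in CD8+CX3CR1+ DCs in all 3 of its pairs under all 8, with log2 differences of 2.80 to 3.59. The 2 ways to join probe sets could not change this, since Lefty1 has 1 probe set. Its unchanged values under them are among the 452 given below. Between the CD8+CX3CR1+ and CD8+CX3CR1- arrays the count of 2 genes became 1 with probe sets averaged and 1 without _x, _s and _a probe sets. Both lost Acvrl1, whose log2 difference was then -1.24 and -0.23. With equal medians Acvrl1 passed 4-fold, making the count 1 in place of 0 against the CD4+ array and 1 in place of 0 against the DN array, both for the CD8+CX3CR1- array. That scaling moves the median of all detected genes by 0.17, 0.16 and -0.13 (log2) in the pairs CD8+CX3CR1+ against CD4+, CD8+CX3CR1- against CD4+, and CD4+ against DN. Without a floor, values within background count as well. The counts were then 3 for CD8+CX3CR1+ against CD8+CX3CR1- (Bmpr1a added), 2 for CD8+CX3CR1+ against DN (Inhba added), 1 for CD8+CX3CR1- against CD4+ (Bmpr1a), 2 for CD8+CX3CR1- against DN (Bmpr1a and Inhba) and 1 for CD4+ against DN (Inhba). For all detected genes the counts without a floor were 3180, 3096, 2814, 3627, 3365 and 3213 in the 6 pairs, in place of 357, 98, 52, 377, 256 and 32. With probe sets averaged they were 216, 50, 26, 245, 161 and 14. With the floor at the 75th percentile they were 195 (CD8+CX3CR1+ against CD4+), 88 (CD8+CX3CR1+ against DN) and 94 (CD4+ against DN), and at the 95th percentile 20 for CD4+ against DN. Of 480 recomputed differences of the 10 genes, 452 moved by less than the probe error and 28 by more, 10 of these without a floor, and 0 called differences changed sign. Of the 18 that moved by more with a floor, 7 were of Acvrl1 and 4 of Bmpr2. Many of the 452 could not have moved, so their number does not measure stability. The 7 genes above the floor on all arrays also lay above each other floor used, and the 4 floor settings left them unchanged. Leaving out _x, _s and _a probe sets could change Acvrl1 alone, the 1 gene with such a stand-in probe set. The direction of Bmpr2 between the CD8+CX3CR1+ and CD4+ arrays changed with probe sets averaged (-0.14 in place of 0.65), as it did between the CD4+ and DN arrays (0.23 in place of -0.51). No paired analysis was possible because each subset has 1 array. Signal over background limits Lefty1, under the floor on 2 arrays and just above it on the CD4+ array, and Bmpr1a and Inhba, each above it on 1 array.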

Other observations

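Some regulators of Smad signalling that the results do not name, chosen after their values were seen, had ranges of at least 2-fold. Nedd4l, a ubiquitin ligase gene, had signals of 441.5 and 415 on the CD8+CX3CR1+ and CD8+CX3CR1- arrays, against 123.5 in CD4+ DCs and 287 in DN DCs. Tgif2, a Smad corepressor gene, was 291.5 in CD8+CX3CR1+ DCs, 123.7 in CD8+CX3CR1- DCs, 100.4 in CD4+ DCs and 191.5 in DN DCs. Map3k7, which encodes the kinase TAK1 of the pathway's Smad-independent branch, was lowest in CD8+CX3CR1- DCs (95.3), against 271 in CD8+CX3CR1+ DCs, 212 in CD4+ DCs and 250.3 in DN DCs.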
